A study of Oryza sativa with 4 samples.

Results

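The genes described here encode proteins of the RNA recognition motif and the splicing machinery. Members were chosen by the words of the annotation in the deposited table: RNA recognition motif, RNP-1, RNA-binding protein, splicing factor or snRNP, leaving out CCCH, LSM, poly(A)-binding and Pumilio proteins. The words matched 165 transcripts of 143 genes among the 31414 genes listed, and for each gene the matching transcript with the highest mean FPKM (fragments per kilobase of transcript, scaled to library depth) was kept. The study compared whole, untreated, soil-grown 3-week-old rice plants of cv. Nakdong to find genes regulated by OsC3H10, a CCCH zinc finger protein that the sample labels call OsTZF8. The nontransgenic control (NT) had 2 libraries, and OsC3H10OX, which carries OsTZF8 under the PGD1 promoter for whole-body expression, also had 2. All OsC3H10OX plants came from 1 transgenic line, number 20 in the T4 generation, so effects of the transgene and of that line cannot be told apart.

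The RNA recognition motif is a common RNA-binding domain of plants and animals, and glycine-rich proteins that carry it are known in plants for their response to cold, drought and abscisic acid. Splicing is carried out by small nuclear ribonucleoprotein particles (snRNPs), which recognise the ends of the intron, together with SR proteins, which are rich in serine and arginine and bind exons, and with factors that mark the branch point and the 3' splice site. Other members act in chloroplasts, where they bind and stabilise plastid transcripts.

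FPKM values for the 143 kept transcripts ranged from means of 0.0283 to 2614, with a median of 19.2 FPKM. Low values fell on even steps, and these steps put 1 FPKM at 36.9 reads per kilobase in NT replicate 1, 56.6 in NT replicate 2, 40.9 in OsC3H10OX replicate 1 and 37.8 in OsC3H10OX replicate 2. Read numbers given below were computed from these depths and a transcript length shortened by 180 nt. The log2 values of the replicates had a correlation across transcripts of 0.97 in each group. The 5 leaf markers summed to 6381 and 6455 FPKM in NT and to 8021 and 9181 in OsC3H10OX, and the 4 root markers to 646 and 649 against 555 and 529.5. The leaf difference lay mostly in 1 Rubisco small subunit gene (Os12g0274700, 1494 and 1486 against 2816 and 2937 FPKM), and the root difference in RCc3 (Os02g0662000, 392 and 390 against 265 and 272 FPKM), while the median log2 fold change of the root markers was 0.05. The 46 markers of dividing cells summed to 4726 and 4840 against 4557 and 4140 FPKM, and the 9 seed glutelin genes to 244 and 291 against 208 and 210.0. No marker passed the test and none was under 0.1 FPKM in all libraries. The part of these differences in the results below was not tested, and in whole plants fewer cells of a type and less RNA per cell cannot be told apart. OsC3H10 itself was not analysed here, so the labels were not checked with the overexpressed gene, and whether the groups were grown and sequenced together is not given in the sources used here. The cultivar and a number that may be a year stand in the NT sample descriptions and are absent from those of OsC3H10OX, so a batch and the genotype cannot be told apart.

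Few of the RNA-binding and splicing genes passed the test for a difference between the groups, as did few of all transcripts tested. With limma on the authors' log2 values and Benjamini-Hochberg adjustment over all 30449 transcripts tested, 1 of the 131 members tested was higher in OsC3H10OX at an adjusted p under 0.05 and 0 were lower, where 0.647% of all transcripts tested were higher, 0.841% lower and 1.49% either. At an unadjusted p under 0.05, 13 members were higher and 6 lower (14.5% of members in either direction), against 8.35% higher, 9.36% lower and 17.7% in either direction over all transcripts tested. A difference of at least 2-fold was reached by 2 members in the higher direction and by 0 in the lower. Over all transcripts tested the shares were 2.15% and 1.88%. The log2 values build on log2(FPKM + 1), which understates changes of low values. The log2 fold change lay within 0.5 of 0 for 126 of 131 members (96.2%) and for 86.2% of all transcripts tested. The 2 sets differ in level, with a median of 19.2 FPKM over the 143 members and 5.54 over all 37972 listed transcripts. The part of level in this spread was not tested. The median log2 fold change over members was 0.06, against 0.0017 over all transcripts tested. Both OsC3H10OX libraries lay above both NT libraries on the normalized scale in 46 members and below in 25, against 26.8% and 26.1% of all transcripts tested. In FPKM, without that normalization, these counts were 36 and 33, against 25.1% and 28.1%. The 12 members that were not tested did not reach 1 FPKM in 2 libraries, and the highest mean among them was 1.04 FPKM.

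**Figure D1:**
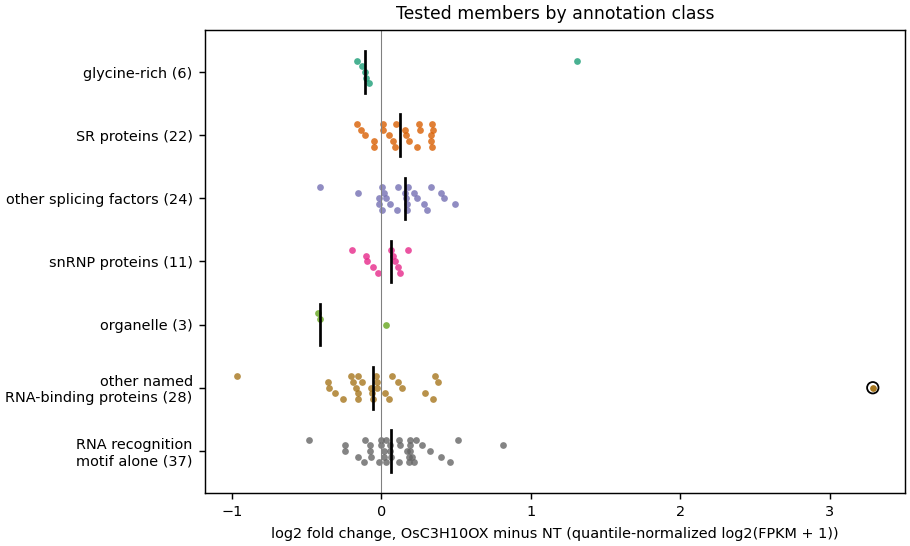
Log2 fold change (OsC3H10OX minus NT, horizontal axis) of each of the 131 tested members in 7 annotation classes (vertical axis), with the number tested in brackets and a bar at the class median. The circled point at 3.29 is Os02g0112900, the member that passed the test, and 126 points lie within 0.5 of 0.

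Os02g0112900, annotated as similar to a viroid RNA-binding protein, was the member that rose. The viroid-binding protein known from tomato carries a bromodomain, a fold that recognises acetylated histones. The gene lies on chromosome 2 at 679467-697321 (IRGSP build of the study), and its 1 listed transcript has 1601 nt. Its level was 1.47 and 1.03 FPKM in NT replicates 1 and 2, and 28.1 and 14.9 FPKM in OsC3H10OX replicates 1 and 2. These levels stand for about 77, 83, 1636 and 800 reads. Both OsC3H10OX libraries lay far above both NT libraries, and the first OsC3H10OX library was the higher of the pair. The log2 fold change was 3.29 with a standard error of 0.33 (limma adjusted p = 0.0366). The log2 fold change was 3.45 without NT replicate 1 and 3.13 without NT replicate 2, with a limma adjusted p of 0.110 and 0.260, and without NT replicate 2 none of the 30449 transcripts passed. The call was also lost when low values were not filtered and when the spread of each transcript was taken alone, and over all alternatives the limma adjusted p ran from 0.0215 to 0.311.

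The gene next to it on the chromosome, Os02g0113200 (annotated as cytochrome P450-like), is no member and was near 0 in NT. It had 0.0418 and 0.0272 FPKM in NT and 2.26 and 1.96 FPKM in OsC3H10OX, with a log2 fold change of 1.57 on the log2(FPKM + 1) scale, which understates changes of such low values (limma adjusted p = 0.0212). The other listed neighbours within 2 places, Os02g0112100, Os02g0112600 and Os02g0113300, had log2 fold changes of 0.02, 0.05 and 0.02.

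The 2 other members with the viroid-binding annotation lay on opposite sides of 0. Os04g0614600 had 31.5 and 33.5 FPKM in NT and 44.3 and 38.1 in OsC3H10OX, a log2 fold change of 0.36 (limma adjusted p = 0.248). Os08g0205900 had 38.6 and 37.6 FPKM in NT and 25.3 and 33.1 in OsC3H10OX, a log2 fold change of -0.36 (limma adjusted p = 0.331). The groups did not overlap in either gene, and neither passed the test. Over all transcripts tested, both OsC3H10OX libraries lay above both NT libraries in 26.8% and below in 26.1%.

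**Figure D2:**
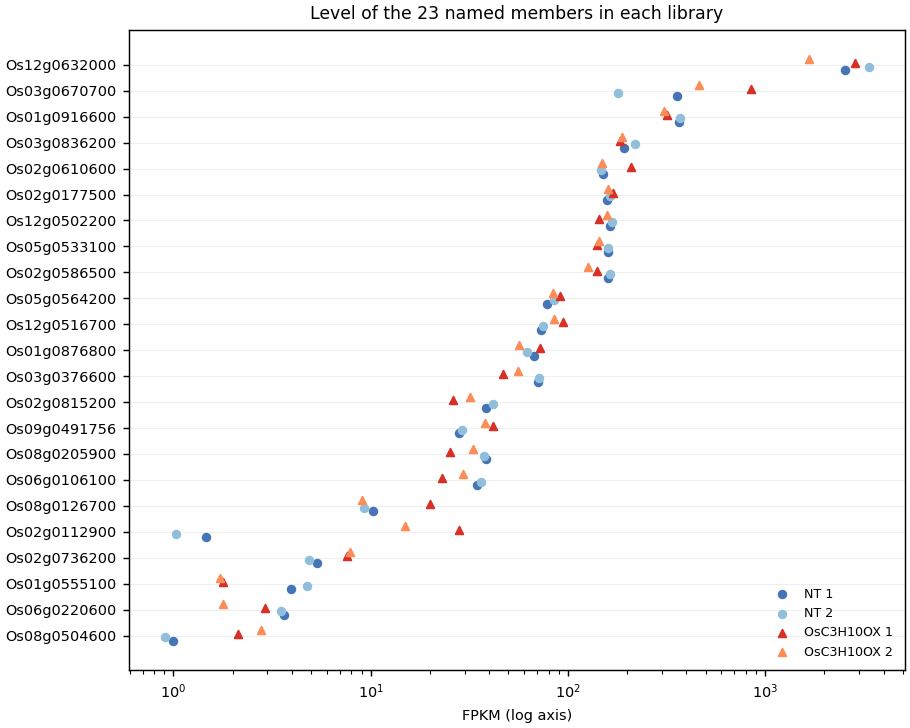
Level (FPKM, log axis) of the kept transcripts of the 23 named members in each of the 4 libraries, ordered by mean level. Circles stand for NT and triangles for OsC3H10OX. Os12g0632000 is at the top with 1679 to 3383 FPKM, and Os02g0112900 is the member whose groups lie farthest apart, at 1.03 and 1.47 against 14.9 and 28.1 FPKM.

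The glycine-rich RNA-binding proteins held the most abundant members. In Arabidopsis this family is known for roles in cold tolerance, in the circadian clock and as RNA chaperones. By kept transcript the strongest member was Os12g0632000, similar to glycine-rich RNA-binding protein 1, though the summed level of Os03g0670700, given below, was higher. Os12g0632000 had 2542 and 3383 FPKM in NT and 2853 and 1679 FPKM in OsC3H10OX. The OsC3H10OX libraries lay on either side of the lower NT library, and the log2 fold change of -0.16 (standard error 0.43) became 0.44 without OsC3H10OX replicate 2 and -0.42 with no normalization. Os01g0916600 had 366 and 372 FPKM in NT and 320 and 307 in OsC3H10OX, a log2 fold change of -0.10 on the quantile-normalized values and -0.23 with no normalization. Of the 7 members of the class 6 were tested and 0 passed. The log2 fold changes of 5 lay between -0.16 and -0.08, and the class median of -0.11 turned to 0.01 without OsC3H10OX replicate 2.

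The remaining tested glycine-rich member, Os03g0670700, is annotated as similar to an abscisic acid-inducible protein, a kind of gene first known from maize. It lies on chromosome 3 at 26460056-26461142, and its kept transcript, Os03t0670700-01, had 357 and 181 FPKM in NT and 854 and 461 in OsC3H10OX. The groups did not overlap, but the replicates of each group differed widely, and the log2 fold change of 1.31 (standard error 0.44) did not pass the test (limma adjusted p = 0.250).

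The gene has 4 listed transcripts, and they differed in sign. The strongest, Os03t0670700-02, had 2118 and 4251 FPKM in NT and 2274 and 1526 in OsC3H10OX, a log2 fold change of -0.65. Os03t0670700-03 had 175 and 32.6 FPKM against 940 and 493 (3.09), and Os03t0670700-04 had 929 and 702 FPKM against 1451 and 930.0 (0.45). Summed over the 4 transcripts the gene had 3579 and 5166 FPKM in NT and 5519 and 3409 in OsC3H10OX, a log2 fold change of 0.01. The kept transcript made up 6.14% of the sum in NT and 14.7% in OsC3H10OX. No transcript of the gene passed the test. FPKM of overlapping transcripts rest on an estimated split of the reads that they share, whose error is unknown here.

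**Figure D3:**
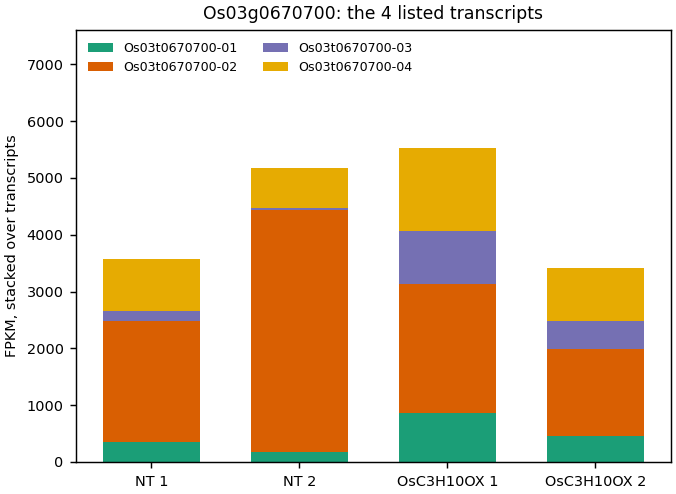
FPKM of the 4 listed transcripts of Os03g0670700 (vertical axis, stacked) in each library (horizontal axis). The sums of 3579, 5166, 5519 and 3409 FPKM do not separate the groups, while transcript 02 is the largest part of every bar and transcript 03 is larger in both OsC3H10OX libraries than in both NT libraries.

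All 22 SR proteins were tested, and 0 passed. Of their log2 fold changes 17 were above 0 on the authors' values (16 on log2(FPKM + 1) with no normalization, and 12 without OsC3H10OX replicate 1). They ran from -0.16 to 0.35 with a median of 0.13, and over all transcripts tested 50.3% were above 0. In 10 of the 22 both OsC3H10OX libraries lay above both NT libraries on the normalized scale and in 2 both lay below. Over all transcripts tested these shares were 26.8% and 26.1%. In FPKM the counts were 7 and 3, against 25.1% and 28.1% of all transcripts tested. Os12g0516700, similar to arginine/serine-rich splicing factor 12, had the smallest p of the class. It had 72.9 and 74.5 FPKM in NT and 94.6 and 85.0 in OsC3H10OX, a log2 fold change of 0.35 with a standard error of 0.11 (limma adjusted p = 0.240). The NT libraries agreed closely and both OsC3H10OX libraries lay above them.

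The most abundant SR member, Os02g0610600, is similar to the small SR protein RSZp22, which carries a zinc knuckle beside its RNA recognition motif. It had 151 and 148 FPKM in NT and 209 and 149 in OsC3H10OX, so that 1 OsC3H10OX library stood above the rest and the other lay between the NT values in FPKM and just above them on the normalized scale (log2 fold change 0.34, standard error 0.20). A like split was seen in Os08g0486200, similar to SC35, a factor that binds exons in animals and plants, with 65.8 and 72.0 FPKM in NT and 102 and 66.5 in OsC3H10OX. In Os05g0364600, similar to SF2, both NT libraries had 14.3 FPKM, and the OsC3H10OX libraries lay on either side of them with 20.2 and 12.9. The 6 RSZ and 9G8-like members had a median log2 fold change of 0.17, the 7 SC35 and SCL members 0.10 and the 4 SF2-like members 0.10. Over the 22 genes the median difference from the NT mean was 0.20 in OsC3H10OX replicate 1 and 0.01 in replicate 2 on the log2 scale.

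**Figure D4:**
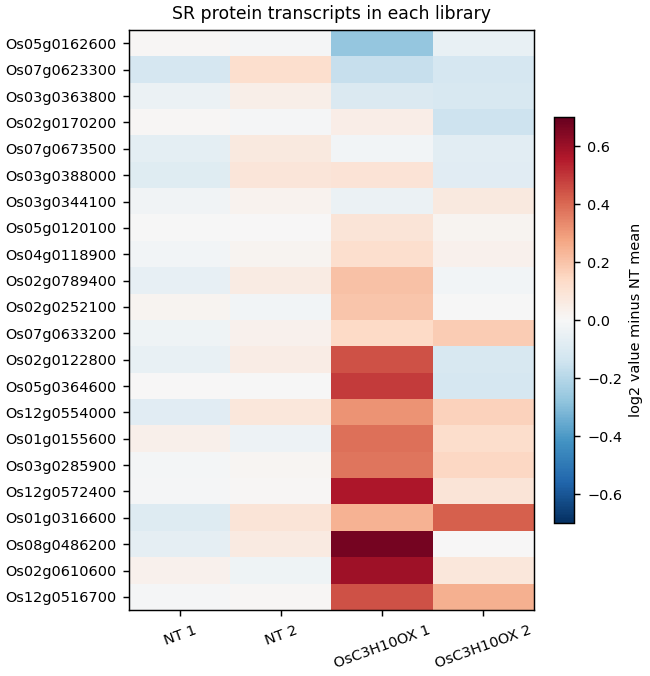
Log2 value minus the NT mean (colour scale) of the 22 SR protein transcripts (rows, ordered by log2 fold change) in each library (columns). The column of OsC3H10OX replicate 1 is the reddest, with a median of 0.20, and that of replicate 2 has a median of 0.01.

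The other splicing factors numbered 26, of which 24 were tested and 0 passed. The log2 fold change was above 0 for 20 of 24 (18 on log2(FPKM + 1) with no normalization, 17 on log2(FPKM + 0.1)), and its median was 0.16 (0.10 with no normalization). Without OsC3H10OX replicate 1 the median was 0.05, with 15 of 24 above 0. Over all transcripts tested 50.3% were above 0 on the authors' values. The U2 auxiliary factor recognises the 3' end of the intron, its large subunit the polypyrimidine tract and its small subunit the splice site itself. Its 5 members had log2 fold changes between 0.0033 and 0.49, of which the smallest turned to -0.0022 on log2(FPKM + 0.1), to -0.15 without OsC3H10OX replicate 1 and to -0.04 without NT replicate 2. Os09g0491756, a small subunit, had the smallest p of the class, with 28.3 and 29.2 FPKM in NT and 41.7 and 38.0 in OsC3H10OX. Both OsC3H10OX libraries lay clearly above both NT libraries, by a log2 fold change of 0.49 with a standard error of 0.10 (limma adjusted p = 0.137). The most abundant small subunit, Os05g0564200, had 78.6 and 85.3 FPKM in NT and 91.5 and 84.3 in OsC3H10OX, with groups that overlapped in FPKM but not on the normalized scale and a log2 fold change of 0.17. The large subunits Os11g0636900 and Os11g0682300 had log2 fold changes of 0.40 and 0.29. For Os11g0636900 the gene's strongest transcript, which has other annotation words, gave -0.16.

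The SF3A and SF3B subunits hold the U2 snRNP at the branch point, and their 7 members had a median log2 fold change of 0.11. Os01g0681600, similar to SF3A subunit 3, had 24.2 and 27.2 FPKM in NT and 44.8 and 25.2 in OsC3H10OX, so that OsC3H10OX replicate 1 stood alone. Os01g0681650, a hypothetical gene that overlaps it, had the same shape, with 53.9 and 51.1 FPKM against 98.6 and 51.4, and without strand information the reads of overlapping genes cannot be told apart. Os08g0127700, similar to SLU7, which in yeast acts in the choice of the 3' splice site, had 59.3 and 56.0 FPKM in NT and 70.6 and 66.8 in OsC3H10OX. Its groups did not overlap, and its log2 fold change was 0.31 (limma adjusted p = 0.247). Os06g0106100, similar to CWC15, a spliceosome protein known from yeast, lay farthest below 0, with 34.6 and 36.5 FPKM in NT and 23.0 and 29.3 in OsC3H10OX (log2 fold change -0.41, limma adjusted p = 0.269). The stronger transcript of that gene, annotated with other words, had 126 and 129 FPKM against 113 and 123, a log2 fold change of -0.03.

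Of the 7 classes the snRNP proteins had the smallest differences, with a median size of 0.10 on the log2 scale. All 11 were tested, 0 passed, 0 had an unadjusted p under 0.05, and the log2 fold changes ran from -0.20 to 0.18. Over all transcripts tested 1.49% passed and 17.7% had an unadjusted limma p under 0.05, so few would be looked for among 11 genes. The class median was 0.06 on the authors' values, 0.0042 on log2(FPKM + 1) with no normalization, -0.07 for FPKM summed over each gene's transcripts and -0.03 without NT replicate 2, so it had no settled sign. Sm proteins form the ring that holds the snRNA of each particle. Among the kept transcripts that of SmF (Os02g0177500) was the most abundant, with 159 and 163 FPKM in NT and 170.0 and 160 in OsC3H10OX. Its groups overlapped in FPKM but not on the normalized scale. SmD1 (Os02g0586500) had the smallest p of the class, with 159 and 164 FPKM in NT and 141 and 126 in OsC3H10OX. Both OsC3H10OX libraries lay below both NT libraries, by a log2 fold change of -0.20 with a standard error of 0.11 (limma adjusted p = 0.416). Os02g0234800, a protein of the U2 particle, had 94.5 and 90.8 FPKM against 94.8 and 91.1, the smallest spread among libraries of these examples. For SmG (Os07g0608700) the kept transcript had a mean of 3.62 FPKM, while the gene's stronger transcript, whose annotation lacks the abbreviation snRNP, had 181 and 199 FPKM in NT and 152 and 165 in OsC3H10OX.

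Chloroplast RNA-binding proteins were few, with 3 members, all tested and 0 passed. The cp29 proteins are known in tobacco as abundant stromal proteins that bind and stabilise plastid transcripts, and both of their members were lower in OsC3H10OX by values that missed the threshold. Os03g0376600 had 70.6 and 71.8 FPKM in NT and 47.1 and 56.0 in OsC3H10OX, a log2 fold change of -0.41 with a standard error of 0.12 (limma adjusted p = 0.211). Os02g0815200 had 38.3 and 41.6 FPKM in NT and 26.2 and 31.9 in OsC3H10OX, a log2 fold change of -0.43 with a standard error of 0.13 (limma adjusted p = 0.232). In both genes both OsC3H10OX libraries lay below both NT libraries, as in 26.1% of all transcripts tested. OsC3H10OX replicate 1 was the lowest library in each. Under every alternative tried both log2 fold changes stayed below 0, between -0.56 and -0.29. The summed level of the 5 leaf markers was higher in both OsC3H10OX libraries, mostly through Os12g0274700, as given above. Whether the amount of leaf plays a part in the cp29 values was not tested. Os03g0376600 overlaps the hypothetical gene Os03g0376701, which had 49.5 and 44.4 FPKM against 35.4 and 43.2. The third member, Os03g0215900, similar to a chloroplastic protein of the P67 type, had 4.65 and 4.42 FPKM against 4.18 and 5.18.

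Other named RNA-binding proteins made up 31 members, of which 28 were tested. Apart from Os02g0112900, which is in this class, none passed. The log2 fold change was below 0 for 18 of 28, with a median of -0.06, while 50.3% of all transcripts tested were above 0. In 11 both OsC3H10OX libraries lay below both NT libraries on the normalized scale and in 7 above (15 and 7 in FPKM). Of all transcripts tested 26.1% lay below and 26.8% above. Os01g0555100, similar to the human RNA-binding protein TAF15, lay farthest below 0 of all tested members. It lies on chromosome 1 at 20935788-20937436 and had 3.95 and 4.75 FPKM in NT and 1.79 and 1.72 in OsC3H10OX, or about 110, 202, 55 and 49 reads. The OsC3H10OX libraries nearly coincided below both NT libraries, by a log2 fold change of -0.97 with a standard error of 0.12 (limma adjusted p = 0.0554). The limma adjusted p was 0.0454 without a mean-variance trend and ran up to 0.392 over the alternatives. It was 0.0471 with FPKM summed per gene, a fit that also drops the normalization and tests 25954 genes, and 0.0705 with the normalization alone dropped.

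Alba proteins, known first from the chromatin of archaea and in eukaryotes as RNA-binding proteins, had 5 members, and 0 passed. In all 5 both OsC3H10OX libraries lay below both NT libraries, as in 26.1% of all transcripts tested, by log2 fold changes between -0.35 and -0.06, and 1 of the 5 turned to 0.06 with FPKM summed per gene. Os03g0166000 was farthest below, with 22.3 and 23.8 FPKM in NT and 18.6 and 16.6 in OsC3H10OX (limma adjusted p = 0.228). The most abundant of them, Os06g0602600, had 75.3 and 82.3 FPKM against 65.6 and 64.7.

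Of the most abundant proteins of this class, Os03g0836200, similar to RZ-1, a glycine-rich protein with a zinc finger known from tobacco, had 193 and 220 FPKM in NT and 184 and 189 in OsC3H10OX. Its log2 fold change of -0.03 turned to 0.05 without NT replicate 2. Os12g0502200, annotated as a low temperature-responsive RNA-binding protein, had 163 and 168 FPKM against 144 and 158, and Os05g0533100, similar to a plasminogen activator inhibitor 1 mRNA-binding protein of animals, had 161 and 159 against 141 and 145. All 3 had log2 fold changes between -0.07 and -0.03 on the quantile-normalized values, and of -0.15, -0.13 and -0.16 in the same order with no normalization. Os06g0141200, similar to EWS, is an example of a gene whose OsC3H10OX libraries diverged, with 51.1 and 52.5 FPKM in NT and 37.9 and 72.4 in OsC3H10OX. The double-stranded RNA-binding protein 1-like Os01g0772000, whose relative in Arabidopsis acts in microRNA processing, had 10.8 and 10.6 FPKM against 12.1 and 11.3.

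Proteins annotated by the RNA recognition motif alone numbered 43, of which 37 were tested and 0 passed. Their functions are not named in the annotation. The log2 fold change was above 0 for 25 of 37, with a median of 0.07, against 50.3% of all transcripts tested above 0. In 16 both OsC3H10OX libraries lay above both NT libraries on the normalized scale and in 6 below (12 and 7 in FPKM). Of all transcripts tested 26.8% lay above and 26.1% below. Os08g0504600 had the smallest p, with 0.991 and 0.902 FPKM in NT and 2.12 and 2.79 in OsC3H10OX (about 38, 53, 90 and 109 reads), a log2 fold change of 0.81 with a standard error of 0.16 (limma adjusted p = 0.134). The groups were well apart, but this transcript is a minor one: the gene's strongest transcript had 26.8 and 26.2 FPKM in NT and 26.9 and 26.4 in OsC3H10OX, a log2 fold change of 0.03. Os02g0736200, with 1 listed transcript, had 5.33 and 4.85 FPKM in NT and 7.57 and 7.83 in OsC3H10OX, again with the groups apart (log2 fold change 0.51, standard error 0.12, limma adjusted p = 0.167).

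In Os08g0126700 the OsC3H10OX libraries disagreed. It had 10.2 and 9.28 FPKM in NT and 20.0 and 9.10 in OsC3H10OX, so the log2 fold change of 0.46 came from replicate 1 and was -0.06 without it. Os06g0220600, which overlaps the hypothetical gene Os06g0220701, had 3.65 and 3.51 FPKM in NT and 2.90 and 1.79 in OsC3H10OX (log2 fold change -0.49, limma adjusted p = 0.280). The most abundant protein of the class, Os01g0876800, had 67.1 and 62.1 FPKM against 72.4 and 56.7, with overlapping groups, and its log2 fold change of 0.07 turned to -0.01 with no normalization.

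The 2 OsC3H10OX libraries did not carry the small shift of these genes alike. The level was higher in replicate 1 than in replicate 2 for 94 of the 131 tested members (71.8%), against 48.6% of all transcripts tested. The median difference from the NT mean was 0.12 on the log2 scale in replicate 1 and 0.0038 in replicate 2. Among the 46 tested SR proteins and other splicing factors the excess of replicate 1 was seen in 38, with medians of 0.24 in replicate 1 and 0.03 in replicate 2, and their median log2 fold change of 0.16 was 0.03 without replicate 1. Among the other 85 tested members it was seen in 56, and their median log2 fold change was 0.02. In the 3 chloroplast proteins replicate 1 was lower than replicate 2. The shift of the members' median thus rested on 1 of the OsC3H10OX libraries, and its cause was not tested.

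**Figure D5:**
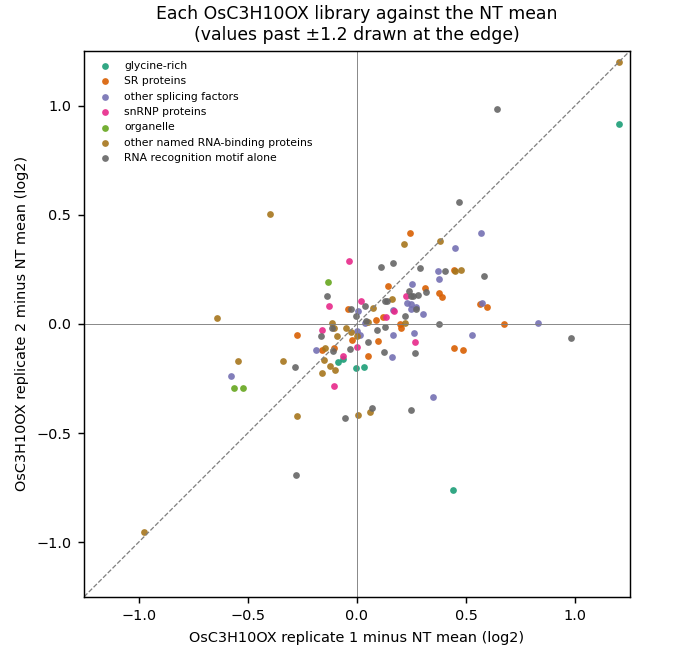
Difference from the NT mean (log2) in OsC3H10OX replicate 1 (horizontal axis) and replicate 2 (vertical axis) for the 131 tested members, coloured by class, with values past the frame drawn at its edge. Points below the dashed line of equal values are the 94 members that were higher in replicate 1.

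Of the 143 members 56 have several listed transcripts, 209 transcripts in all over the 143 genes. Of the 66 transcripts that were not kept 59 were tested, and 0 passed. In 19 genes a transcript with other annotation words was stronger than the kept one. With the strongest transcript of each gene, whatever its annotation, 1 member again passed as higher and 0 as lower, the median log2 fold change was 0.03, and 1 member in place of 2 was at least 2-fold higher.

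Genes of the same pathway outside the members were taken from 6 annotation lists, which overlap each other and hold 161 genes together, 148 of them tested. None passed, while 6 were higher and 6 lower at an unadjusted p under 0.05. That was 8.11% in either direction, against 17.7% in either direction over all transcripts tested (8.35% higher and 9.36% lower). The median log2 fold change of the 148 was 0.06, and 59.5% of them were above 0, against 50.3% of all transcripts tested. The 21 tested spliceosome proteins outside the members had a median of 0.05 with 0 at an unadjusted p under 0.05. The 13 Sm and LSm proteins had a median of 0.08, the 9 poly(A)-binding and Pumilio proteins 0.10, and the 70 RNA helicases 0.04. The 24 KH-domain proteins, which bind RNA through another fold, had a median of 0.08, and 3 were higher at an unadjusted p under 0.05. Os03g0213900, similar to a KH protein that binds ROUGH SHEATH2 in maize, had 15.9 and 16.0 FPKM in NT and 28.6 and 22.5 in OsC3H10OX, a log2 fold change of 0.66 (limma adjusted p = 0.155). The groups were apart, and the replicates of OsC3H10OX differed more than those of NT. The 20 tested ribonucleoproteins outside the members had a median of -0.03, with 0 higher and 4 lower at an unadjusted p under 0.05. Among them, NHP2 (Os06g0274200) and NAP57 (Os07g0636000), subunits of the H/ACA complex that modifies ribosomal RNA, had log2 fold changes of -0.30 and -0.27 (limma adjusted p = 0.223 and 0.261). The first had 54.9 and 57.6 FPKM in NT and 43.4 and 44.6 in OsC3H10OX. The second had 35.5 and 34.4 against 29.2 and 27.3, with the groups apart in both genes. In FPKM both OsC3H10OX libraries lay below both NT libraries in 28.1% of all transcripts tested, and above in 25.1%. The member Os03g0289200, similar to subunit 1 of that complex, had a log2 fold change of 0.06, and of -0.07 with FPKM summed per gene.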

How the data were processed

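Total RNA of whole plants was made into unstranded TruSeq libraries. The authors trimmed single-end reads with Trimmomatic 0.32, mapped them with TopHat to the IRGSP genome with RAP-DB genes, and deposited FPKM per transcript. The tool that estimated FPKM is not given in the sources used here. Beside FPKM stand log2 values that the authors deposited, found by comparison to be log2(FPKM + 1) after quantile normalization of the 4 libraries. Columns of their group means, fold changes and p-values were not used.

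Log2 fold changes (OsC3H10OX minus NT) were tested with limma 3.58.1 in R 4.3.3 (mean-variance trend, Benjamini-Hochberg adjustment) on the 30449 of 37972 transcripts that reached 1 FPKM in 2 or more libraries. The step was tested on simulated data. The study calls the libraries biological replicates, and n = 2 per group limits the precision of every value. Reads per kilobase were inferred from the steps of low FPKM, of which 92.3% to 94.6% per library were whole within 0.1.

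Members, classes and lists were chosen with earlier results of these data known. Once values had been seen, the class and list words were corrected, since the phrase splice isoform had matched unrelated proteins. Members were named by a rule: called members, the 8 highest levels, the 6 largest differences in each direction, and the smallest p and highest level of each class, 23 in all. Others named in the text were chosen after their values were seen. Alternatives were no normalization, a pseudocount of 0.1, no filter, a filter of 5 FPKM, sums per gene, limma without the trend, robust limma, the spread of each transcript alone, a replicate block and each library left out.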

Additional observations from a re-analysis of the deposited data

How the results depend on the processing

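The 1 member called higher was 0 with no filter on low FPKM, with each transcript's own spread, with the replicate block, and without NT replicate 1 or NT replicate 2 (range over left-out libraries 0 to 1), and the adjusted p of Os02g0112900 was then 0.104, 0.311, 0.0615, 0.110 and 0.260, with a log2 fold change of 3.13 to 3.45. The count of members called lower was 1 with FPKM summed per gene and with limma without the trend, and 0 under the other alternatives. Members at least 2-fold higher fell from 2 to 1 with FPKM summed per gene, with the strongest transcript of each gene (an alternative chosen after seeing the data), were 3 with log2(FPKM + 0.1), and over left-out libraries ran from 1 to 2. Members at least 2-fold lower were 1 with log2(FPKM + 0.1), and 0 to 1 over left-out libraries. The median log2 fold change of members ran from 0.0038 without OsC3H10OX replicate 1 to 0.12 without replicate 2. Directions turned for Os01g0876800 (-0.0109 with no normalization and with sums per gene, -0.0112 with log2(FPKM + 0.1), and from -0.134 to 0.265 over left-out libraries) and for the strongest transcript of Os03g0670700 (-0.65). They also turned over left-out libraries for Os03g0836200 (-0.117 to 0.049), Os08g0126700 (-0.0646 to 0.981), Os12g0502200 (-0.113 to 0.0055) and Os12g0632000 (-0.761 to 0.441). The turns listed here are those of the 23 members named by rule. Others in the text turned too, such as Os06g0141200, with -0.40 without OsC3H10OX replicate 2 and 0.50 without replicate 1. Of these, the cause was not tested. Replicate numbers do not pair the libraries (the correlation of same-numbered deviations was -0.0258), and the block cut the calls over all transcripts from 453 to 25. Those calls were 126 with no filter, 3 with each transcript's own spread and 0 without NT replicate 2. The count of called genes in the related lists was 0 throughout. A group reduced to 1 library was given the spread of the remaining libraries.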
